A study of Arabidopsis thaliana with 3 samples.

Results

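The kinesin genes of Arabidopsis thaliana were followed in plants that lack normal function of a prefoldin subunit. Members were the nuclear loci whose deposited annotation names a kinesin at its start or the function microtubule motor later on, and 63 of the 29030 loci on the array met this rule. Of the 63, 55 entered by the word kinesin and 8 by the motor function alone. The set holds more than motors: 4 loci are annotated as kinesin light chain-related and 1, AT5G27550, as a pseudogene of a kinesin motor protein.

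RNA of the mutant pfd4 and of its wild type Col-0 was compared directly on 3 arrays, which form a single group. Plants of both genotypes were 2 weeks old, had grown on substrate with vermiculite at 22 °C in days of 16 h light and 8 h darkness, and were then kept at 4 °C for 24 h. The mutant RNA was labelled with Cy3 and the wild-type RNA with Hyper5 for arrays 1 and 2, and the other way round for array 3. The arrays are biological replicates per the labels, in which neither the pfd4 allele nor the number of plants behind each RNA sample is given. The sample descriptions give replicate number 1 for all 3 arrays, so the numbers used here come from the titles. If the arrays did not hold separate plants, the spread between them would be technical. Both genotypes were cold-treated, so the values compare genotypes in the cold and say nothing of the response to cold itself.

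Kinesins are motor proteins that walk along microtubules with energy from ATP, and plants have a large family of them. They build the spindle and the phragmoplast, the microtubule array that lays down the new cell wall between daughter cells, and in cells that have stopped dividing they shape trichomes and root hairs and guide cell wall deposition. Prefoldin is a chaperone that binds newly made tubulin and actin chains, so the mutated gene acts on the supply of the track on which these motors run.

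Each value is the log2 ratio between pfd4 and Col-0 within an array, normalized by the authors, with the spots of a locus averaged. The direction is called likely, because the labels give the dye of each genotype and not which channel was the numerator; it was taken from the transcript of the mutated gene. PFD4 (AT1G08780) had log2 ratios of -3.08, -2.71 and -2.17 on arrays 1, 2 and 3, the same sign on each array, also on the one with exchanged dyes, and the ratios were read as pfd4 over Col-0 on the assumption that the mutated gene is lower in its mutant. Its level is therefore no check of the labels. Should Col-0 have been the numerator, all directions below turn together. The ratios used here carry no signal intensity, so a ratio near 0 from equal transcript levels cannot be told apart from one of a transcript too scarce to be measured.

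No kinesin gene passed the test, and the mean ratios were small. The means of the 63 loci ran from -0.40 for KLCR3 to 0.62 for AT5G27950, and their median was -0.04, against 0.007 over all loci. At an adjusted p of 0.05 in limma, 0 of the 63 loci were called, as were 0.0% of all loci. At an unadjusted p under 0.05 in limma, 0 of the 63 passed, against 4.73% of all loci; by direction, 2.14% of all loci were higher and 2.58% lower in pfd4. The smallest adjusted p among the members was 0.887, and the smallest over all loci was 0.314. PFD4 itself, at a mean of -2.65 ± 0.46 (SD, n = 3), had an adjusted p of 0.887 in limma. Its unadjusted p in limma was 8.26e-05, so it passed the unadjusted threshold that no member passed. The adjusted test on 3 arrays thus left out even a ratio of that size. The 0 calls therefore do not show that the kinesin genes were alike in both genotypes. RNA came from whole plants, in which fewer cells of a type and less RNA per cell cannot be told apart.

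The intervals give the size of change that the arrays leave possible. The 95% interval of the mean from limma had a median reach of 0.38 to either side over the 63 loci, with 0.31 as the narrowest and 0.81 as the widest. It lay within a 2-fold change in either direction for 61 of the 63 members, against 87.3% of all loci. The exceptions were AT5G27950, with an interval from -0.04 to 1.28, and KICP-02, with one from -0.29 to 1.34, both open on the side of higher levels in pfd4. A mean at least 1.5-fold higher was found at 1 member, AT5G27950, against 1.88% of all loci, and a mean at least 1.5-fold lower at 0 members, against 2.45%. A mean at least 2-fold off in either direction was found at 0 members, against 0.665% of all loci. These intervals hold for each locus alone and are not widened for the number of loci.

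**Figure D1:**
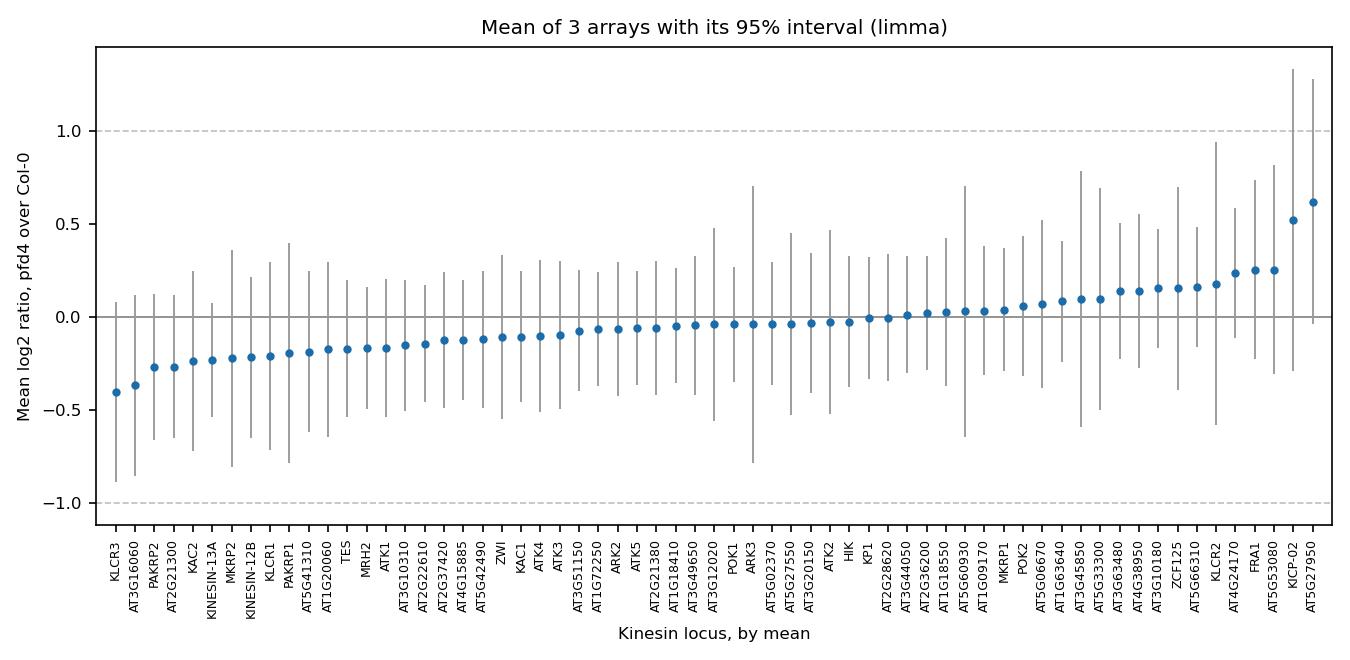
Mean log2 ratio of pfd4 over Col-0 for each of the 63 kinesin loci, ordered by mean (points), with the 95% interval from limma over the 3 arrays (bars); dashed lines mark a 2-fold change. Every interval takes in 0, and the intervals of KICP-02 and AT5G27950 alone reach past 2-fold.

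Motors of cell division came first in the order of roles. Of the 7 loci known from the phragmoplast or cytokinesis, 6 had means below 0 and POK2 had one just above, against 48.7% of all loci with a mean below 0, and the median of the 7 was -0.17. On arrays 1, 2 and 3, 4, 4 and 5 of the 7 were below 0, against 50.7%, 47.6% and 48.5% of all loci. Only PAKRP2 was below 0 on all 3 arrays. Groups were put together from annotation, gene symbols and textbook roles after the values were known, so these counts and medians describe and do not test. The 30 kinesin motor loci without a symbol were not sorted by role, so the 7 need not stand for all such motors. PAKRP2 (AT4G14330), a phragmoplast-associated kinesin, had log2 ratios of -0.495, -0.31 and -0.005 on arrays 1, 2 and 3 (mean -0.27 ± 0.25, SD, n = 3; adjusted p = 0.887 in limma). It was below 0 on every array, although only barely on array 3, where 1 of its 2 spots had 0.09. KINESIN-12B (AT3G23670), which with its near relative PAKRP1 sits in the phragmoplast midzone, had -0.55, 0.06 and -0.16 (mean -0.22 ± 0.31, SD, n = 3). PAKRP1 (AT4G14150) had 0.23, -0.76 and -0.05, so the arrays did not share a direction for either of these relatives.

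HIK (AT1G18370, HINKEL) starts a MAP kinase cascade that lets the phragmoplast grow outward. It had log2 ratios of 0.13, 0.01 and -0.22 (mean -0.03 ± 0.18, SD, n = 3), on both sides of 0. Its relative TES (AT3G43210, TETRASPORE), needed for cytokinesis after male meiosis, had -0.29, -0.29 and 0.07, with a mean of -0.17 ± 0.21 (SD, n = 3). POK1 (AT3G17360) and POK2 (AT3G19050) orient the phragmoplast towards the division site. POK1 had a mean of -0.04 ± 0.06 (SD, n = 3), among the least variable of the named motors, and POK2 had 0.06 ± 0.22. The SD of POK1 is that of an average of 2 spots that did not match. Their means were of opposite sign (-0.16 and 0.08), and they lay 0.56 apart on array 1. Neither POK1 nor POK2 differed between genotypes beyond the spread of the arrays.

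Genes that work with these motors were read from lists fixed by locus. In the kinase pathway that HIK feeds and its phragmoplast partners, 0 of 7 genes were called in either direction by limma's adjusted p, and the median was 0.09. ANP3, a kinase at the head of the cascade, had the lowest mean of them (-0.17, -0.28 and -0.35 on arrays 1, 2 and 3), and MPK4, the kinase at its end, the highest (0.20, 0.525 and 0.145). Each of these kinases kept 1 sign on every array, and neither passed (adjusted p = 0.887 for both in limma). Among 22 microtubule-associated proteins 0 were called, with a median of 0.04. EB1B, which rides on growing microtubule ends, had the highest mean at 0.37 ± 0.31 (SD, n = 3), and its relative EB1C, a nuclear and spindle form, the lowest at -0.36 ± 0.56.

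The share of dividing cells was looked at through other genes. Of 19 mitotic regulators, B-type cyclins and their kinases among them, 0 were called, and the median was 0.05. Means were above 0 for 12 of them, against 51.3% of all loci, and below 0 for 7. The arrays differed, with medians of -0.11, -0.05 and 0.19 on arrays 1, 2 and 3. Above 0 were 8 of the 19 on array 1, 8 on array 2 and 14 on array 3. CDKB2;1, a mitotic kinase, had the lowest mean at -0.27 ± 0.38 (SD, n = 3) and CDC20.2, which activates the complex that ends mitosis, the highest at 0.29 ± 0.29. Of 10 genes of DNA replication 0 were called, with a median of 0.004. MCM3, a part of the replicative helicase, had 0.78, 0.77 and -0.45 on arrays 1, 2 and 3, and MCM5, another part, had the lowest mean at -0.16 ± 0.09 (SD, n = 3). As no locus on the array passed the adjusted test, these 0 calls do not set the division genes apart from any others.

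Markers of organs and cell types that whole plants can differ in gave 0 calls as well. Medians were 0.01 over 6 root markers, -0.12 over 6 floral markers, -0.08 over 6 markers of trichomes and guard cells and -0.003 over 3 markers of the shoot meristem. At an unadjusted p under 0.05 in limma, AP1, a floral identity factor, was lower (-0.44), as was GL2, and MYB60 was higher, among 21 markers in all. Over all loci the shares were 2.58% lower and 2.14% higher, and in the lists of division genes above 0 genes passed. The widest departures were GL2, a regulator of trichomes and root epidermis, at -0.46 ± 0.34 (SD, n = 3) and MYB60, a guard cell factor, at 0.73 ± 0.07 (adjusted p = 0.887 for both in limma). Whether the make-up of the plants has a part in any kinesin value was not tested.

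Motors of the C-terminal class and their relatives, whose best-known members walk towards the minus end of the microtubule, gave 9 named loci, all with means below 0, against 48.7% of all loci, and a median of -0.10. Without replicate 3 that median was -0.205. The group was put together after the values were known and holds only loci with a gene symbol. The 30 kinesin motor loci without a symbol, 12 of them with means above 0, were not sorted by class. The 9 loci therefore do not stand for the whole class. A group of 7 other named motors, KICP-02 and MKRP2 among them, was made in the same way and leaned the other way. Its means were above 0 for 6 loci, against 51.3% of all loci, with a median of 0.10. The lowest of the 9, KAC2 (AT5G65460), had log2 ratios of -0.38, -0.52 and 0.19 on arrays 1, 2 and 3 (mean -0.24 ± 0.38, SD, n = 3; adjusted p = 0.898 in limma). KAC2 and KAC1 (AT5G10470) are unusual kinesins needed for the actin-based movement of chloroplasts, and KAC1 had -0.25, -0.16 and 0.09. For both, the arrays with pfd4 in Cy3 were below 0 and the array with exchanged dyes above it. The same held for the group, whose median went from -0.26 and -0.15 on arrays 1 and 2 to 0.08 on array 3, where 5 of the 9 loci were above 0. In a fit with a dye term the group's median was -0.07.

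ATK1 (AT4G21270), needed for spindle assembly in meiosis, had log2 ratios of -0.26, -0.32 and 0.08, with a mean of -0.17 ± 0.22 (SD, n = 3). ATK5 (AT4G05190), which gathers spindle microtubules at the poles and in the midzone, had -0.04, -0.04 and -0.10 and thus a mean of -0.06 ± 0.03 (SD, n = 3). ATK5 stayed within a small range on every array, and its 95% interval ran from -0.37 to 0.25. ATK2, ATK3 and ATK4 had means of -0.03, -0.10 and -0.10. ZWI (AT5G65930, ZWICHEL), a calmodulin-binding kinesin that controls trichome branching, had -0.38, 0.25 and -0.19 (mean -0.11 ± 0.32, SD, n = 3), with no shared sign. KP1 (AT3G44730), a kinesin found at mitochondria, was centred on 0 with a mean of -0.005.

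**Figure D2:**
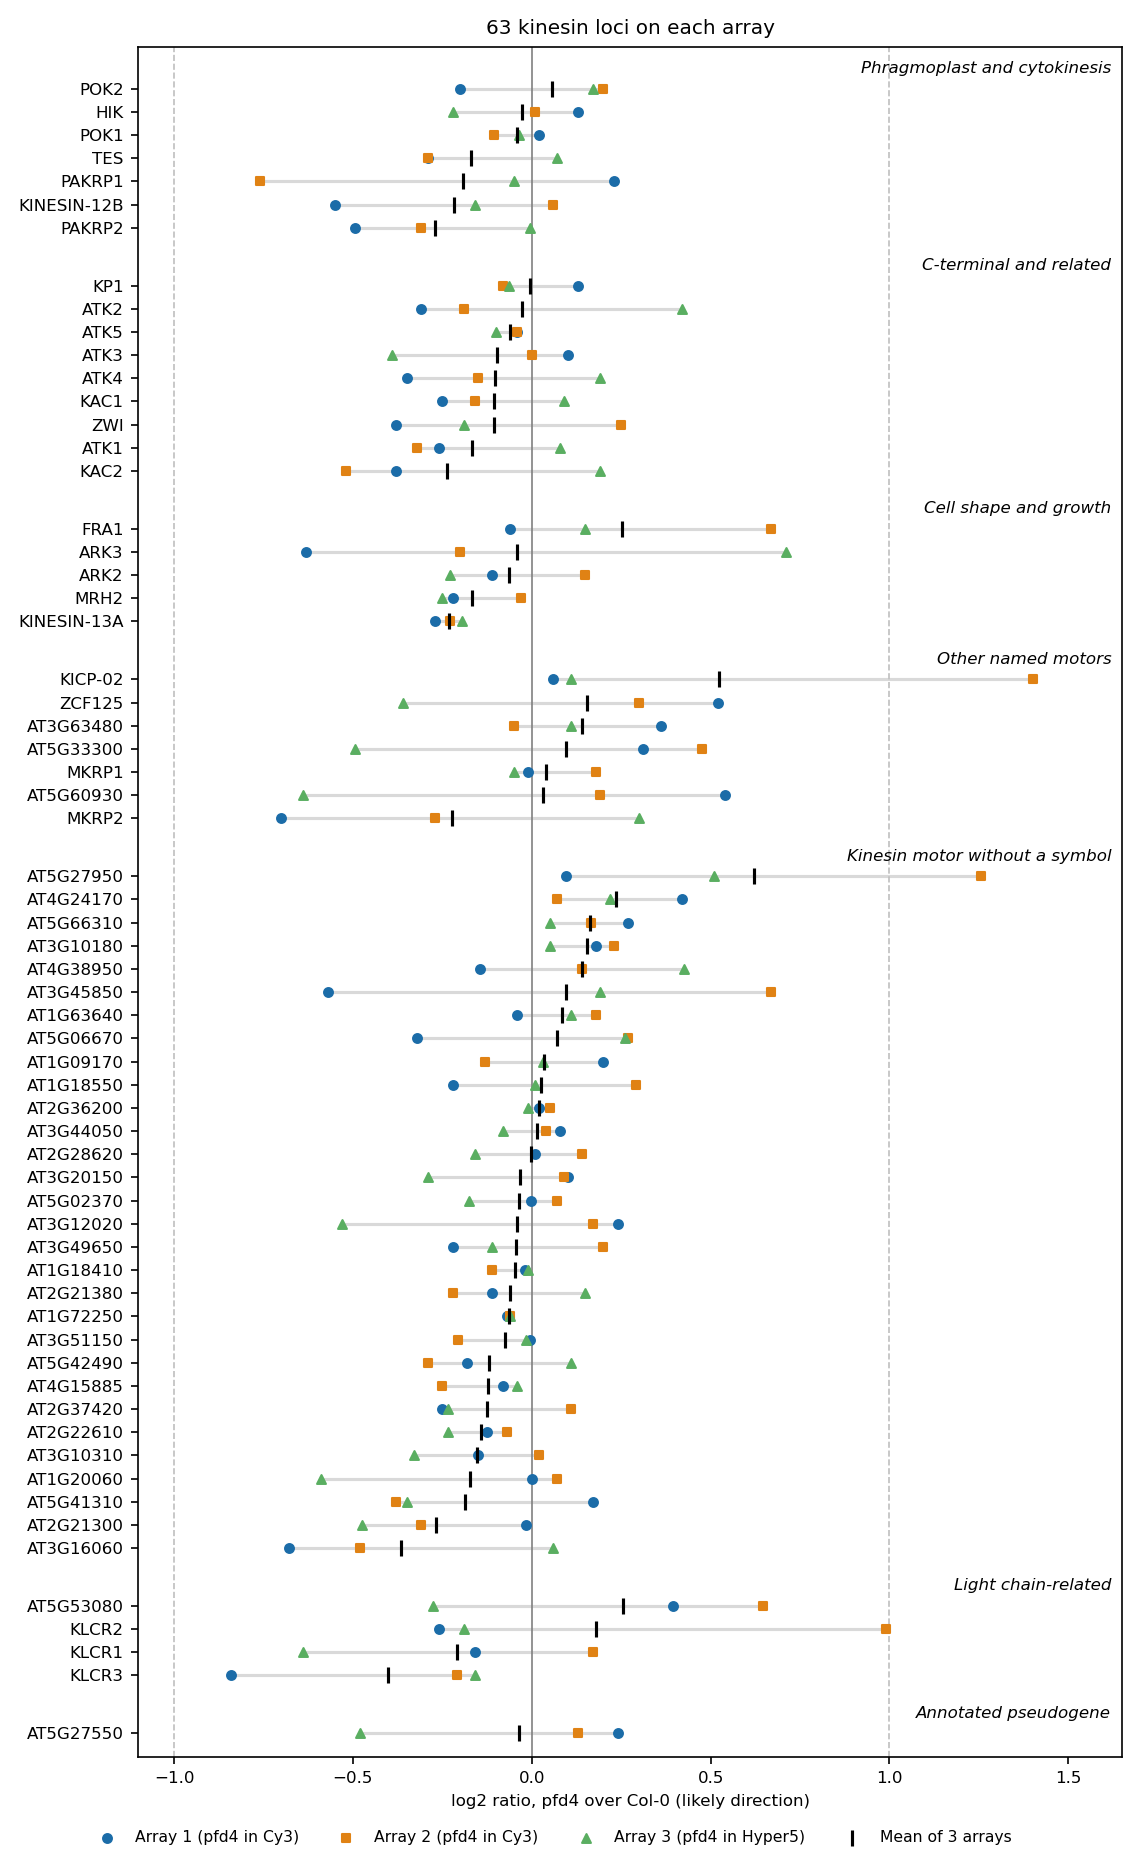
Log2 ratio of pfd4 over Col-0 of each of the 63 kinesin loci on arrays 1 (circles), 2 (squares) and 3 (triangles), with the mean as a black tick and loci grouped by known role; dashed lines mark a 2-fold change. Values of a locus mostly straddle 0, and the values past 2-fold are those of KICP-02 and AT5G27950 on array 2.

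Motors known from cell shape and growth ranged from even to uneven over the arrays. KINESIN-13A (AT3G16630), which acts on trichome branching and on the pits of xylem walls, had log2 ratios of -0.27, -0.23 and -0.195 on arrays 1, 2 and 3 (mean -0.23 ± 0.04, SD, n = 3; adjusted p = 0.887 in limma). It was below 0 by a like amount on every array, whichever dye the mutant RNA carried. This holds for the average of 2 unlike spots, of which 1 had 0.07 on array 3. MRH2 (AT3G54870), an armadillo-repeat kinesin needed for normal root hairs, was also below 0 on all 3 arrays, at -0.22, -0.03 and -0.25. Its relatives were uneven: ARK2 (AT1G01950) had -0.11, 0.15 and -0.23, and ARK3 (AT1G12430) ran from -0.63 on array 1 over -0.20 to 0.71 on array 3.

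FRA1 (AT5G47820, FRAGILE FIBER 1) is a motor required for orderly cellulose deposition and strong fibres. It had log2 ratios of -0.06, 0.67 and 0.15 (mean 0.25 ± 0.38, SD, n = 3), the largest value being on array 2. Without replicate 2 its mean was 0.045. KICP-02 (AT3G50240), annotated as a microtubule motor, had 0.06, 1.40 and 0.11 (mean 0.52 ± 0.76, SD, n = 3; adjusted p = 0.887 in limma). It was positive on all 3 arrays, but arrays 1 and 3 lay close to 0, and without replicate 2 its mean was 0.085. MKRP2 (AT4G39050), one of a pair of kinesin-related proteins directed to mitochondria, had -0.70, -0.27 and 0.30, and MKRP1 (AT1G21730) had a mean of 0.04 ± 0.12 (SD, n = 3). The loci AT5G60930 and AT5G33300, annotated as chromosome-associated kinesins, had 0.54, 0.19 and -0.64, and 0.31, 0.475 and -0.495, with the opposite sign on array 3 in both. ZCF125 (AT1G59540) went the same way with 0.52, 0.30 and -0.36, and the kinesin heavy chain gene AT3G63480 had a mean of 0.14 ± 0.21 (SD, n = 3).

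Among the 30 loci that are annotated as kinesin motor proteins and have no gene symbol, AT5G27950 stood at the top of all members. It had log2 ratios of 0.095, 1.255 and 0.51 on arrays 1, 2 and 3, a mean of 0.62 ± 0.59 (SD, n = 3) or 1.54-fold. The ratio was above 0 on every array, while array 1 lay close to 0 and array 2 was by far the highest. It did not pass (adjusted p = 0.887 in limma), and its 95% interval took in 0. Without replicate 2 its mean was 0.30, and without replicate 1 it was 0.88 (adjusted p = 0.996 in limma). AT5G27950 is measured by 2 spots, with means of 0.61 and 0.63 and log2 ratios of 0.11, 1.08 and 0.64 against 0.08, 1.43 and 0.38, so both spots gave the same order of arrays 1, 3 and 2. By their place among all loci, AT5G27950 was above 98.5% and KICP-02 above 97.3% of the means.

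Further loci of this kind were nearer to 0. AT4G24170 had 0.42, 0.07 and 0.22, AT5G66310 had 0.27, 0.165 and 0.05, and AT3G10180 had 0.18, 0.23 and 0.05, each above 0 on all 3 arrays with a mean of at most 0.24. For AT5G66310 this holds for the average of 2 spots, of which 1 had -0.24 on array 3. On the other side, AT3G16060 had -0.68, -0.48 and 0.06 (mean -0.37 ± 0.38, SD, n = 3), which left array 3 apart from arrays 1 and 2. Without replicate 3 its mean was -0.58 (adjusted p = 0.345 in limma). AT2G21300 had -0.015, -0.31 and -0.475 and was below 0 throughout (mean -0.27 ± 0.23, SD, n = 3). This holds for the average of its 2 spots, of which 1 was just above 0 on arrays 1 and 2 (0.03 and 0.07). AT2G28620 had 0.01, 0.14 and -0.16, and the evenest of all, AT1G72250, had -0.07, -0.06 and -0.06. The median of the 30 loci was -0.04, with 18 means below 0 and 12 above.

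The other loci with this annotation had means between -0.19 for AT5G41310 (0.17, -0.38 and -0.35 on arrays 1, 2 and 3) and 0.14 for AT4G38950 (-0.145, 0.14 and 0.425). In both, array 1 had the opposite sign to array 3. AT3G45850 varied most among the 30 loci, with -0.57, 0.67 and 0.19 and an SD of 0.63 around a mean of 0.10. AT3G12020 had 0.24, 0.17 and -0.53, and AT1G20060 had 0.00, 0.07 and -0.59, so that array 3 alone carried their means below 0. Negative on every array but of small size were AT2G22610 (mean -0.14), AT4G15885 (-0.12), AT3G51150 (-0.08) and AT1G18410 (-0.05). AT2G22610 and AT3G51150 are averages of 2 spots each, and none of these spots was itself negative on all 3 arrays. AT2G36200, with 0.02, 0.05 and -0.01, and AT3G44050, with 0.08, 0.04 and -0.08, stayed within 0.1 of 0 on each array.

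The light chain-related loci encode proteins without a motor domain; KLCR1 to KLCR3 bind microtubules under the plasma membrane, where they keep the tracks of cellulose synthase in place. KLCR3 (AT1G27500) had the lowest mean of all members, with log2 ratios of -0.84, -0.21 and -0.16 (mean -0.40 ± 0.38, SD, n = 3; adjusted p = 0.887 in limma). It was below 0 on every array, and array 1 gave most of the mean, which was -0.185 without replicate 1. KLCR1 (AT4G10840) had -0.16, 0.17 and -0.64, and KLCR2 (AT3G27960) had -0.26, 0.99 and -0.19, each with array 2 above 0 and arrays 1 and 3 below it. The median of the 4 light chain-related loci was -0.02, and it was -0.31 without replicate 2 and 0.185 without replicate 3. The fourth locus, AT5G53080, had 0.395, 0.645 and -0.275. The pseudogene AT5G27550 had a mean of -0.04 ± 0.39 (SD, n = 3).

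Signs and dyes were counted over all members. On all 3 arrays, 5 of the 63 loci were positive, against 12.3% of all loci, and 11 were negative, against 12.1%. Of the 63 means, 41 lay below 0, against 48.7% of all loci, and 22 above 0, against 51.3%. Array by array, 39 members were below 0 on array 1 (50.7% of all loci), 28 on array 2 (47.6%) and 38 on array 3 (48.5%). The medians were -0.06, 0.04 and -0.05 on the 3 arrays, each within 0.1 of the median of all loci on that array. These shares were counted after the values were known. Of the 63 loci, 11 were positive on arrays 1 and 2 and negative on array 3, against 17.0% of all loci, and another 11 had the reverse pattern, against 16.8%, so these patterns were near the background. Arrays 1 and 2 differed in sign at 23 members (38.4% of all loci), arrays 1 and 3 at 34 (55.9%) and arrays 2 and 3 at 35 (50.8%).

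Over the 63 loci, arrays 1 and 2, with the same dyes, correlated at r = 0.23 (rho = 0.29), arrays 1 and 3, with exchanged dyes, at r = -0.39 (rho = -0.37), and arrays 2 and 3 at r = -0.002 (rho = -0.13). Over all loci the values of r were 0.40, -0.27 and -0.04. The points of each correlation share the arrays, their RNA and their dyes, and genes are not independent replicates. Loci that were high on array 1 therefore tended to be low on array 3, among the kinesins as on the array as a whole. In a fit with a dye term, the dye coefficient was larger in size than the genotype coefficient for 32 of the 63 loci, against 53.4% of all loci. The dye coefficient ran from -0.56 for ARK3 to 0.50 for AT5G60930. Array 3 alone had exchanged dyes, so this coefficient cannot be told apart from anything else particular to array 3, such as its plants or RNA.

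**Figure D3:**
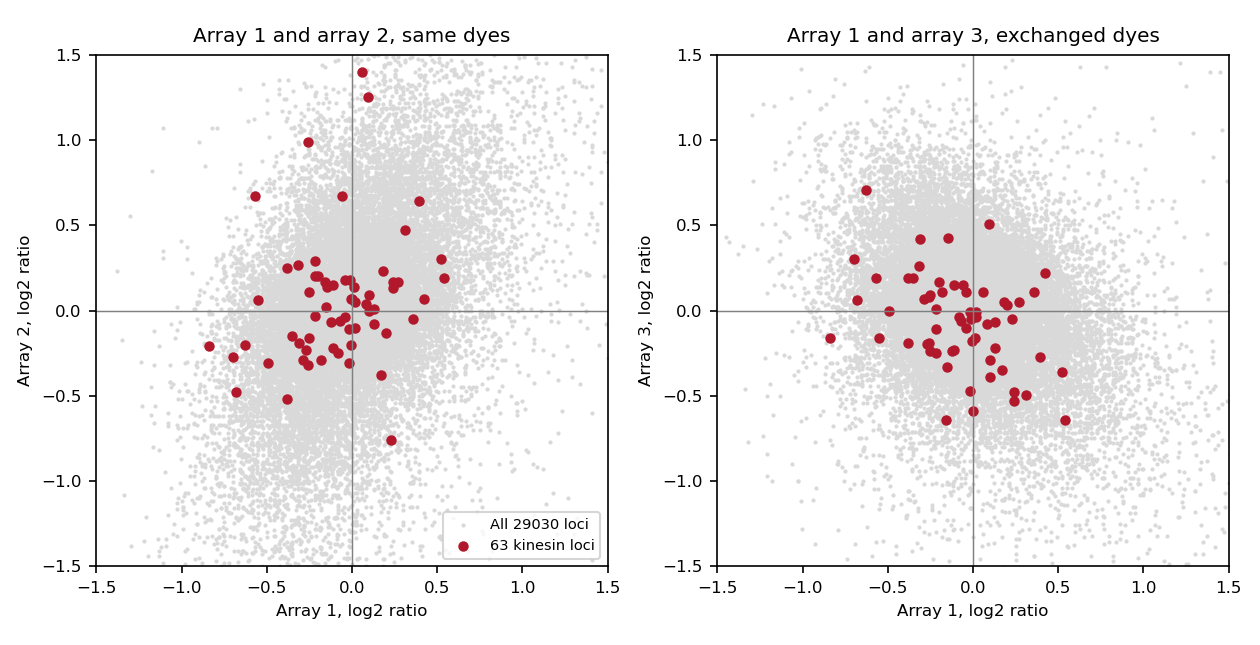
Log2 ratios of array 1 (x axis) against array 2 (left, same dyes) and array 3 (right, exchanged dyes), with all 29030 loci in grey and the 63 kinesin loci in red; loci beyond 1.5 on either axis are not drawn. The kinesin loci lie within the cloud of all loci, with r = 0.23 on the left and r = -0.39 on the right.

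The SD of the kinesin ratios was below that of all loci on each array, while the typical size of a ratio was nearly the same. Their SD over loci was 0.30, 0.38 and 0.27 on arrays 1, 2 and 3, against 0.36, 0.55 and 0.37 over all loci. The median size of a ratio was 0.20, 0.19 and 0.18 on these arrays, against 0.20, 0.23 and 0.19. The SD of a locus over the 3 arrays had a median of 0.22, against 0.26 over all loci. At least 2-fold off were 0 members on array 1 (1.52% of all loci), 2 on array 2 (7.79%) and 0 on array 3 (2.09%). The 2 were KICP-02 and AT5G27950.

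Loci with several spots showed how far spots of 1 locus differ within an array. Only AT1G63640 and KINESIN-13A have spots with the IDs of different transcripts, while the spots of each other locus share an ID. The cause of the gaps was not tested. Spots of 1 locus differed on an array by a median of 0.34, 0.30 and 0.49 on arrays 1, 2 and 3, and by as much as 0.85 for AT5G53080 on array 1. Of the 63 loci, 46 had 1 spot, 16 had 2 and 1 had 3, and the spots' means over the arrays differed by a median of 0.15, from 0.01 for ARK2 to 0.36 for KINESIN-13A. In 11 of the 17 loci with several spots the spot means shared a sign, in 5 they were of opposite sign, and in AT5G66310 1 of them was 0. The median gap between spot means was thus larger than the median size of the kinesin means, 0.11. For KINESIN-13A the spots carry the IDs of different transcripts, and whether each detects that transcript alone was not tested. The spot with ID AT3G16630.1 had -0.44, -0.33 and -0.46, and the spot with ID AT3G16630.2 had -0.10, -0.13 and 0.07. The first was low on all 3 arrays and the second near 0, and the level of KINESIN-13A above is their average. With the first listed spot in place of the average, KINESIN-13A had a mean of -0.41 (adjusted p = 0.935 in limma). Kinesins share their motor domain, and whether spots also bind the RNA of relatives was not tested.

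**Figure D4:**
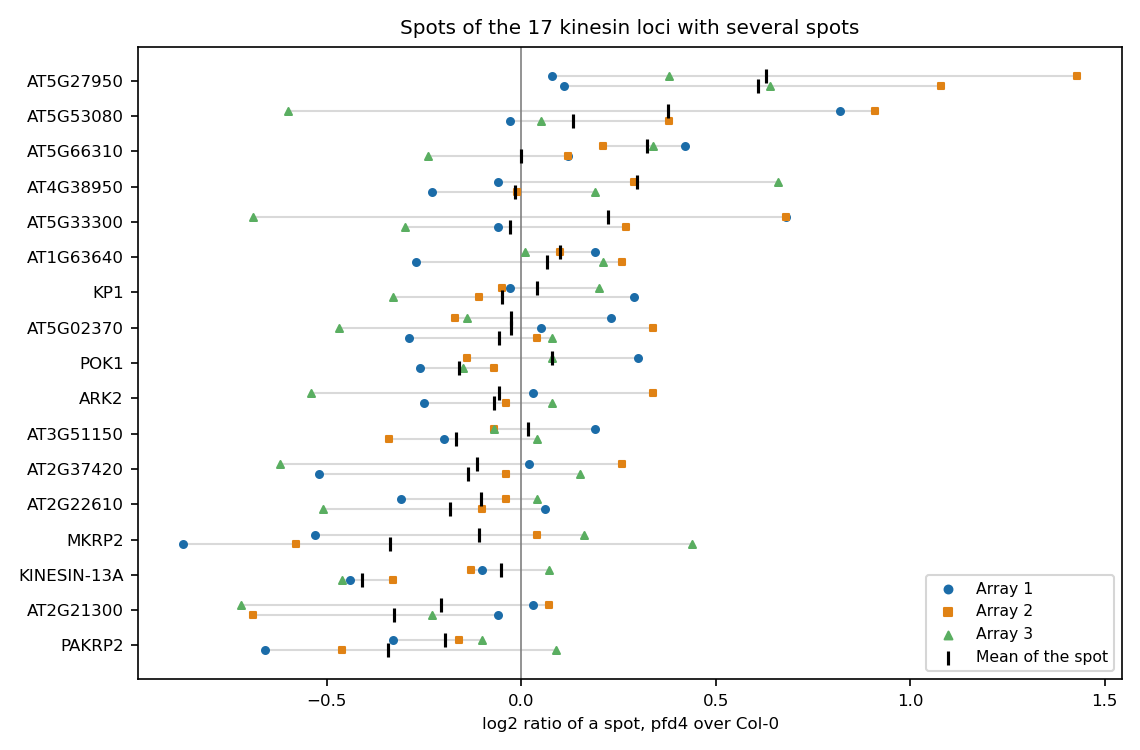
Log2 ratios of the single spots of the 17 kinesin loci with several spots, on arrays 1 (circles), 2 (squares) and 3 (triangles), 1 row of points for each spot and a black tick at the spot's mean. The 2 spots of AT5G27950 lie together at 0.61 and 0.63, while those of KINESIN-13A lie at -0.41 and -0.05.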

How the data were processed

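The authors deposited a log2 ratio for each spot of 3 dual-dye arrays, normalized with limma per the submitters' processing notes. Its version and settings and the genome build were not given in the sources used here, and base 2 was assumed because limma uses it. The pair of deposited tables was identical at all 45220 spots. Of these, 38613 spots carried a locus code, and their values were averaged per locus and array, which gave 29030 loci; all other spots were not tested. All 63 members were matched by locus to a RefSeq gene table of TAIR10.1 for symbols.

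The test at each locus was limma's (version 3.58.1, R 4.3.3; lmFit and eBayes, mean of 3 ratios against 0, two-sided), with Benjamini-Hochberg adjustment over all loci. The fit had 2 residual degrees of freedom and 2.68 from the prior. Intervals are limma's 95% intervals, errors are SDs over arrays, and the number of arrays limits the precision. The procedure was tested on simulated data with independent noise on each array. These data lacked the correlations between the real arrays, so they do not show how the test performs on the real ones. Alternatives left out each array, added a dye term, weighted or scaled arrays, or took the median or first spot. The members and lists were chosen with earlier results of these data known. Genes were named by rule: the 6 members with the smallest p in each direction, 18 well-studied members, PFD4 and the extreme means of each partner list; others are given for their values. The grouping by role, from annotation, RefSeq symbols and textbook knowledge, was made after the values were seen, because the annotation does not give the kinesin family of most loci.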

Additional observations from a re-analysis of the deposited data

How the results depend on the processing

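Under every alternative run, limma called 0 of the 63 kinesin loci and 0 of all loci at an adjusted p of 0.05. At an unadjusted p under 0.05 the count of kinesin loci ranged from 0 to 1 higher and from 0 to 2 lower when single replicates were left out; AT5G53080 (0.52) was the higher and KAC2 (-0.45) and AT3G16060 the lower ones without replicate 3, and AT5G27950 the higher one without replicate 1. With scale normalization between arrays 1 was higher (AT5G27950, 0.59), and 1 was lower when the first spot stood for the locus (KINESIN-13A). Members with a mean below 0 numbered 33 to 44 without single replicates, and members with an interval within 2-fold 51 to 58. A set without light chain-related loci and the pseudogene and a set with 4 more loci annotated as microtubule motor, both chosen after seeing the data, also gave 0 calls. Without single replicates, medians ranged from -0.245 to -0.045 for the phragmoplast motors, from -0.205 to -0.07 for C-terminal and related motors, from -0.3125 to 0.185 for light chain-related loci, from -0.17 to -0.04 for cell shape and growth, from -0.03 to 0.365 for the other named motors, from -0.0625 to 0.0154 for kinesin motor loci without a symbol, from -0.125 to 0.11 for the kinase pathway, from -0.0175 to 0.085 for microtubule-associated proteins, from -0.12 to 0.085 for mitotic regulators and from -0.21 to -0.085 for floral markers. Among the members named by rule, signs turned without single replicates for ZWI (-0.285 to 0.03), POK2 (-0.015 to 0.185) and PAKRP1 (-0.405 to 0.09). They also turned for AT2G28620 (-0.075 to 0.075), HIK (-0.105 to 0.07) and KLCR1 (-0.40 to 0.005). With array weights they turned for AT2G28620 (0.0145) and HIK (0.0126). The cause was not tested. Signs of the other members were not followed in this way, and some turned too, as for ATK3 (mean -0.10, and 0.05 without replicate 3). Leaving out a replicate leaves 2 arrays. Each ratio already pairs the genotypes within an array, so the test was itself paired and no further pairing was added. No filter on dim spots could be run without intensities.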

Other observations

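Outside the 63 loci, 4 loci carry microtubule motor as their whole annotation and so did not meet the rule. AT1G55550 had log2 ratios of -0.24, -1.06 and 0.12 on arrays 1, 2 and 3, AT2G47500 had -0.43, 0.13 and -0.10, AT5G23910 had -0.10, 0.07 and -0.22, and AT1G73860 had a mean of 0.003 ± 0.07 (SD, n = 3). Like the members, they lay on both sides of 0. A further 3 spots without a locus code name a kinesin: TA51911_3702, annotated as kinesin heavy chain DNA binding protein-like, had 0.20, 0.26 and -0.12, TC287150 with the same annotation had -0.20, -0.50 and 0.14, and TC303684, a kinesin-related protein, had -0.26, -0.23 and 0.23. In each of these spots array 3, with exchanged dyes, had the opposite sign to arrays 1 and 2.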
